A study of Mus musculus with 11 samples.

Results

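The amino acid and peptide transporters were taken as the genes whose symbol begins with Slc1a, Slc3a, Slc6a, Slc7a, Slc15a, Slc36a, Slc38a or Slc43a followed by a digit, with at least 15 counts in total over 11 RNA-seq libraries of sorted mouse duodenal cells. This gave 56 of the 38283 genes measured. Among all 72 symbols of that form, 67 had a count. Just outside the limit lay Slc6a5 with 12 counts and Slc38a5 and Slc7a3 with 13 each, and just inside it lay Slc6a13 with 20 and Slc38a8 with 22. The 56 members comprised 16 of the Slc6 family, 13 of Slc7, 9 of Slc38, 6 of Slc1, 4 of Slc15, 3 of Slc36, 3 of Slc43 and 2 of Slc3. Of these, 3 carry a transporter's name without being one: Slc36a1os and Slc6a19os are antisense transcripts, and Slc7a6os is a separate gene on the opposite strand of Slc7a6. A test was possible for 47 members. The other 9 did not reach the filter's level in enough libraries and are Slc1a7, Slc6a2, Slc6a9, Slc6a12, Slc6a13, Slc6a15, Slc36a1os, Slc38a4 and Slc38a8.

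The cells came from the duodenum of 2 reporter strains on standard chow, with age and sex not given in the sources used here. In Neurod1-cre-eYFP mice a yellow fluorescent protein switched on by Cre marks cells in which Neurod1, a transcription factor of enteroendocrine cells, is or was active. In GluVenus mice the Venus protein follows the proglucagon gene, which is expressed in a subset of those hormone-producing cells. Flow sorting of each strain gave reporter-positive and reporter-negative cells, sequenced as 3 positive and 3 negative libraries for NeuroD1 and 3 positive and 2 negative libraries for Glu. No further allele or treatment is labelled in any group. Libraries are named by group and label number, and whether a number stands for 1 animal is not labelled, so the tests cover only the spread from library to library, which may be technical. Values are listed below in the order NeuroD1_positive_6360, NeuroD1_positive_6361 and NeuroD1_positive_6362, the same numbers for the NeuroD1 negative cells, then Glu_positive_5254, Glu_positive_5160 and Glu_positive_4665, and Glu_negative_5254 and Glu_negative_4665.

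Enterocytes take up amino acids and small peptides from the gut lumen through carriers of the brush border, many of them driven by sodium or protons, and release them into the blood through exchangers and facilitators of the basolateral membrane. Several carriers work in pairs: a light chain of the Slc7 family moves the substrate, and a heavy chain, Slc3a1 or Slc3a2, brings it to the membrane. Enteroendocrine cells sit among the enterocytes, and protein digestion products are known stimuli of their hormone release, with peptide and amino acid carriers counted among the ways these cells sense them.

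Libraries held 2279594 to 5722372 counts, of which the 56 members took 0.156% to 0.315%, and 51 to 54 members had a count in each library. Values are CPM (a gene's counts relative to the TMM-scaled library size), given as mean ± SD where averaged. Of the 8 enteroendocrine markers examined, 8 were higher in positive than in negative cells of each strain, and their summed level was 39878 to 58468 CPM against 1895 to 2253 in the NeuroD1 strain and 9424 to 26489 CPM against 909 to 1098 in the Glu strain. The negative cells were not epithelium alone: 14 immune markers summed to 984 to 2488 CPM in NeuroD1 negative and 2259 to 4547 in Glu negative libraries, against 47.0 to 122 in NeuroD1 positive and 382 to 2269 in Glu positive libraries, with the 2269 in Glu_positive_5254. NeuroD1_negative_6360 and the Glu libraries stood apart from the other 5, with the mitochondrial ribosomal genes listed at 0 against 27.5% to 33.9% of counts. Estimated counts that were not whole numbers occurred in 356 to 488 genes of each NeuroD1 library and in at most 2 of any Glu library, so strain and processing cannot be told apart between strains. In bulk libraries, fewer cells of a type and less RNA per cell cannot be told apart.

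Among genes compared per length of exon (CPM per kb), Slc6a6, the taurine carrier, led the tested members in both positive populations, at 44.9 ± 5.38 in NeuroD1 positive and 47.0 ± 20.9 in Glu positive cells. Slc6a19, the main sodium-coupled carrier of neutral amino acids in the brush border, stood next in both, at 32.3 ± 3.18 and 32.2 ± 15.5 CPM per kb. In NeuroD1 positive cells the SDs of these first 2 did not overlap, and in Glu positive cells they did. Slc15a1, the proton-coupled carrier of dipeptides and tripeptides, ranked 5 in NeuroD1 positive cells (18.4 ± 5.90) and 4 in Glu positive cells (26.8 ± 4.49), with a spread that overlapped that of Slc43a2 in both. Per length of its longest transcript, in place of the union of exons, Slc15a1 came to 27.8 and 40.6 CPM per kb. By that length its mean stood above that of Slc6a19 in Glu positive cells and above that of Slc43a2 in NeuroD1 positive cells. The ranks given here are therefore those of the union of exons alone. The negative cells had another order: Slc43a2 (50.5 ± 26.8), Slc7a8 (44.3 ± 22.1) and Slc3a2 (43.3 ± 6.83) led in NeuroD1 negative cells, within each other's spread, and Slc3a2 (43.5 ± 20.7) led in Glu negative cells. There Slc6a19 ranked lower, at 13 in NeuroD1 negative cells (11.7 ± 5.26 CPM per kb) and 18 in Glu negative cells (5.24 ± 0.226).

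**Figure D1:**
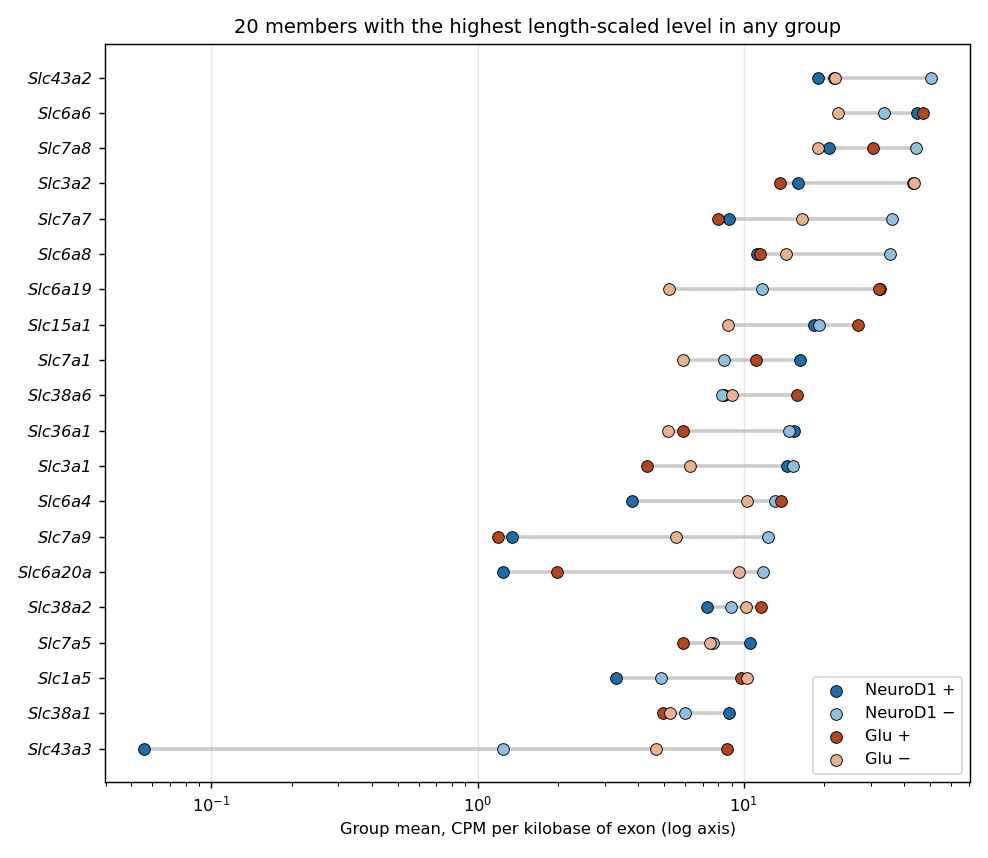
Mean level of 20 members in each of the 4 groups, in CPM per kb of exon on a log axis. By the union of exons, Slc6a6 and Slc6a19 stand first and second in both positive populations, and Slc6a19 falls to rank 13 in NeuroD1 negative and 18 in Glu negative cells.

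In NeuroD1 positive against NeuroD1 negative cells, 3 members were higher and 11 lower among the 47 tested (edgeR quasi-likelihood test, Benjamini-Hochberg adjusted p under 0.05). Of all 14332 genes tested, 6.57% were called higher and 7.61% lower. The 14 calls made up 29.8% of the tested members, against 14.2% of all genes. In Glu positive against Glu negative cells, 3 members were higher and 2 lower, or 10.6% of those tested, where 4.22% of all genes were called higher and 2.41% lower, 6.64% in all. The median log2 fold change of the tested members was -0.06 in the NeuroD1 comparison, beside 0.02 for all genes, and 0.19 in the Glu comparison, beside 0.12. In every call in these comparisons the positive and negative libraries did not overlap. This was not counted over all genes called and adds no support to the calls. Where groups of a gene not called are said not to overlap, that too was not counted over all genes. It describes the values and is no evidence of a change. The members called in each comparison follow by their roles.

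Slc6a19 rose in the positive cells of both strains. It is annotated at chromosome 13, 73679745 to 73704865, minus strand (GRCm38, ENSMUSG00000021565). In the NeuroD1 positive libraries it was 144, 170 and 172 CPM, and in the negative ones 55.2, 34.1 and 86.4. The Glu positive libraries gave 245, 91.3 and 147 CPM, against 25.4 and 27.0 in the Glu negative libraries. Thus each positive library lay above each negative library of its strain, and the Glu positive libraries were spread more widely than the NeuroD1 positive ones. The log2 fold change was 1.47 ± 0.40 (SE, adjusted p = 0.0181) in the NeuroD1 comparison and 2.62 ± 0.49 (adjusted p = 0.00324) in the Glu comparison. The NeuroD1 call was lost in 4 of the 6 fits that left out 1 library (all but those without NeuroD1_positive_6360 or NeuroD1_negative_6362), with an adjusted p of up to 0.0868, and with scaling by library totals (0.0558). The Glu call was lost without either Glu negative library, with an adjusted p of up to 0.0672. Slc6a18, a related brush border carrier best known from the kidney, was at most 4.82 CPM in any library.

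Slc15a1, at chromosome 14, 121459621 to 121505252, minus strand (ENSMUSG00000025557), rose in Glu positive cells and did not pass the test in NeuroD1 positive cells. Its Glu positive libraries had 151, 135 and 108 CPM and its Glu negative libraries 52.8 and 32.5, for a log2 fold change of 1.62 ± 0.46 (adjusted p = 0.0396). In the NeuroD1 strain the values were 68.3, 122 and 78.4 CPM in positive and 76.5, 58.2 and 145 in negative cells, with a log2 fold change of -0.06 ± 0.39 (adjusted p = 0.954). The NeuroD1 groups overlapped, and the highest of their 6 libraries, NeuroD1_negative_6362, also had the highest summed enterocyte markers of the 6, 13604 CPM. Other libraries did not keep that order: NeuroD1_positive_6361, at 122 CPM of Slc15a1, had 3366, and NeuroD1_negative_6360, at 76.5, had 7030. The part of these markers in the Slc15a1 values was not tested. The Glu call was lost without either Glu negative library (adjusted p up to 0.352), with upper quartile or total scaling and with the Glu libraries fitted alone. Of the other Slc15 members, the peptide carrier Slc15a2 and the lysosomal carriers Slc15a3 and Slc15a4 stayed at or below 11.4 CPM in every library and were not called in either comparison.

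**Figure D2:**
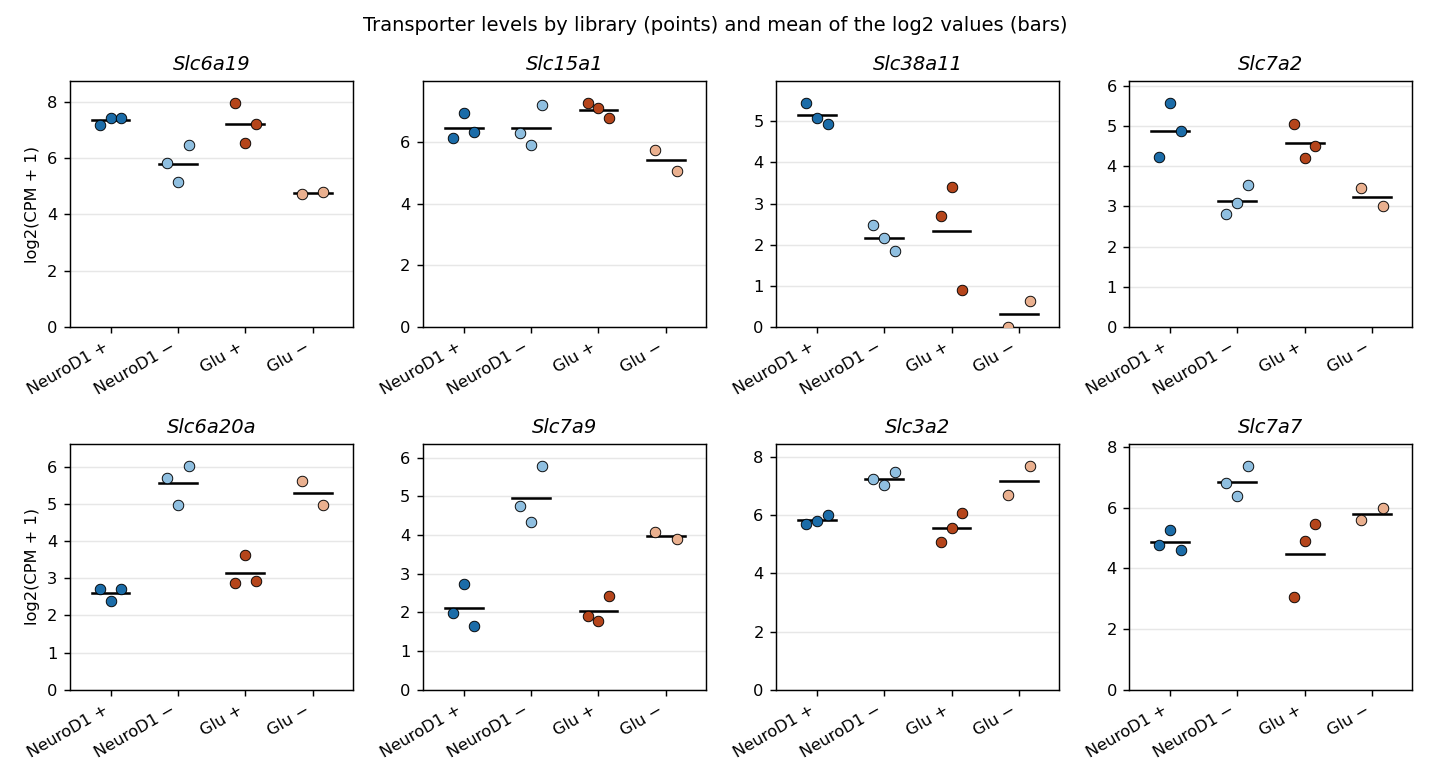
Level of 8 members in each of the 11 libraries, as log2(CPM + 1), with points for libraries and bars for the mean of the log2 values in each group. Slc6a19 and Slc38a11 lie higher in both positive populations, Slc6a20a and Slc3a2 lower in both, and Slc15a1 is separated between the Glu groups alone.

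The stretch upstream of the start is shown for Slc15a1 and for Slc6a19, Slc38a11 and Slc6a20a, 3 of the 4 members called in the same direction in both strains. Each is the 200 bases from 250 to 51 before the RefSeq start, on the gene's own strand, from RefSeq on GRCm38.p6: chr14:121505305-121505504 for Slc15a1, chr13:73692687-73692886 for Slc6a19, chr2:65364077-65364276 for Slc38a11 and chr9:123678883-123679082 for Slc6a20a, all minus strand. Capitals mark matches, on either strand, to any of 4 motifs: CAGATG and CAGCTG, E-boxes of the kind bound by Neurod1 and related factors, GTTAAT, the core of an HNF1 site, and TGATGNAA, an amino acid response element.
Slc15a1: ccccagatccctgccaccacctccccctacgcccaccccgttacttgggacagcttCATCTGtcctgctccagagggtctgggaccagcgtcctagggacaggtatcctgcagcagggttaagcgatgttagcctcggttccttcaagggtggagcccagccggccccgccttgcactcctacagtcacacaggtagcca
Slc6a19: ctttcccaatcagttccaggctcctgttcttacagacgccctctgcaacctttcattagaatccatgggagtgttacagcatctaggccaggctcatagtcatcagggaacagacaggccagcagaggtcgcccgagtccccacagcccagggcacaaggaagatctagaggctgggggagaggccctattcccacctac
Slc38a11: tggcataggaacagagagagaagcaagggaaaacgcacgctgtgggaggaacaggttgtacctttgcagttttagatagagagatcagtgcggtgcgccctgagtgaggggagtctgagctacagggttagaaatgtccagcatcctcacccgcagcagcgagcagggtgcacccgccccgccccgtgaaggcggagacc
Slc6a20a: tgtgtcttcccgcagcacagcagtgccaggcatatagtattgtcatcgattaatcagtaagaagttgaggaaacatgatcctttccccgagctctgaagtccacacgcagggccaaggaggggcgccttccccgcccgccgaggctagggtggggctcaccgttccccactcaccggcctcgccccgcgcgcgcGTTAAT
Slc15a1 held a CAGATG on the opposite strand, Slc6a20a held a GTTAAT at its end, where 3 bases of the window lie in an exon annotated by GENCODE, and no match was in the other 2 windows. Among 32851 windows of the same length in the RefSeq table, 12.0% held CAGATG, 10.3% CAGCTG, 5.33% GTTAAT and 2.72% TGATGNAA. In the 63 windows of the 43 members found in that table the shares were 11.1%, 15.9%, 7.94% and 4.76%. The window of Slc6a19 lies inside the span given above, since the RefSeq start is downstream of the first GENCODE start.

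Cltrn, which encodes collectrin, a membrane partner of Slc6a19 best known from the kidney, rose with it in the positive cells of both strains. It had 16.5, 31.3 and 14.4 CPM in NeuroD1 positive against 1.06, 0.502 and 0 in NeuroD1 negative libraries, a log2 fold change of 4.98 ± 0.79 (adjusted p = 0.000284). In Glu cells Cltrn was 44.3, 18.9 and 28.1 CPM in positive and 0.884 and 1.12 in negative libraries and rose by a log2 fold change of 4.87 ± 0.87 (adjusted p = 0.00235), a call lost without either Glu negative library (adjusted p up to 0.0594). Every positive library was thus above every negative library across both strains. The NeuroD1 call of Cltrn held under the 10 other settings tried and in the 6 fits without 1 library. Cltrn belongs to a list of 10 partners and ion pumps of brush border uptake, of which 1 rose and 6 fell in NeuroD1 cells (median log2 fold change -1.26) and 2 rose and none fell in Glu cells (median -0.46). Among the 6 were Ace (-4.31 ± 0.63, adjusted p = 0.000133), a peptidase, and Pdzk1 (-4.11 ± 1.18, adjusted p = 0.0240), a scaffold of apical carriers, and the other call in Glu cells was the peptidase Dpp4 (1.64 ± 0.43, adjusted p = 0.0279). Pdzk1 lost its call without NeuroD1_positive_6360, NeuroD1_positive_6362 or NeuroD1_negative_6362 (adjusted p up to 0.184) and with limma voom. Dpp4 lost its call without either Glu negative library, with total scaling and with the Glu libraries fitted alone.

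**Figure D3:**
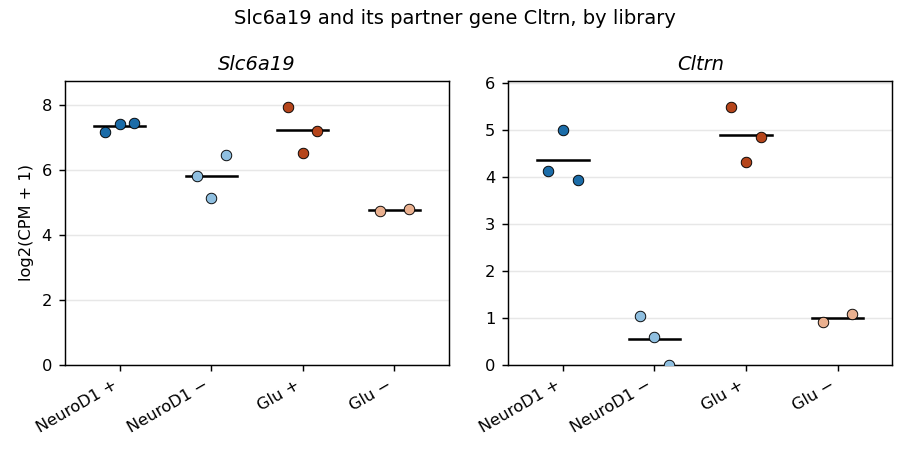
Slc6a19 and Cltrn in each of the 11 libraries, as log2(CPM + 1), with points for libraries and bars for the mean of the log2 values in each group. Both are higher in every positive library than in the negative libraries of its strain.

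The other brush border members that changed fell in positive cells. Slc6a20a, a carrier of proline and other imino acids (chromosome 9, 123634770 to 123678885), was 5.51, 4.20 and 5.51 CPM in NeuroD1 positive and 50.4, 30.1 and 63.7 in NeuroD1 negative libraries, with a log2 fold change of -3.23 ± 0.53 (adjusted p = 0.000391). In Glu cells it was 6.37, 11.4 and 6.55 against 48.2 and 30.3 CPM, with -2.28 ± 0.54 (adjusted p = 0.0161), lost without either Glu negative library and with the Glu libraries fitted alone. Every positive library was thus under every negative library across both strains. Its neighbour Slc6a20b (123590800 to 123632565) was 2.2, 0.382 and 0.424 CPM against 2.64, 10.04 and 19.6 in NeuroD1 cells, with -3.42 ± 0.95 (adjusted p = 0.0208). The coding sequences of Slc6a20a and Slc6a20b were 85.3% identical, so reads may have been split between them. On the opposite strand, Sacm1l overlaps 21.1% of the exon length of Slc6a20b, and Gm17120 overlaps 13.8% of that of Slc6a20a. The use of strand is not given in the sources used here. Slc7a9, the light chain that imports cystine and cationic amino acids, was 2.94, 5.72 and 2.12 CPM in NeuroD1 positive against 26.1, 19.1 and 54.1 in NeuroD1 negative libraries, with -3.22 ± 0.65 (adjusted p = 0.00225). The NeuroD1 calls of Slc6a20a and Slc7a9 held in each of the 6 fits without 1 library, and that of Slc6a20b was lost without NeuroD1_positive_6361, NeuroD1_positive_6362 or NeuroD1_negative_6362 (adjusted p up to 0.130) and with limma voom. The heavy chain of Slc7a9, Slc3a1, had 37.1, 32.0 and 29.5 CPM against 25.9, 32.1 and 46.3 and did not pass the test. Of its exon length, 26.5% overlaps Prepl on the opposite strand, with which it may share reads. In Glu cells Slc7a9 had 2.73, 2.41 and 4.42 CPM in positive and 15.9 and 13.9 in negative libraries, without overlap, and did not pass. Of the 11 brush border members, 1 rose and 3 fell in NeuroD1 cells and 2 rose and 1 fell in Glu cells. Beside these, 8 of 10 enterocyte markers fell in NeuroD1 positive cells and none rose, while in Glu positive cells 5 fell and 1 rose. Their summed level was 2571 to 3366 CPM in NeuroD1 positive and 4350 to 13604 in NeuroD1 negative libraries. In the Glu strain it was 3723 to 4529 CPM in positive and 3159 to 3973 in negative libraries, so the sum was not lower. The part of these markers in the transporter values was not tested.

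Slc3a2, the CD98 heavy chain of the exchangers that release or exchange amino acids across the basolateral membrane (chromosome 19, 8706882 to 8723369), fell in both strains. It had 51, 55.3 and 62.7 CPM in NeuroD1 positive against 152, 129 and 177 in NeuroD1 negative libraries, with a log2 fold change of -1.44 ± 0.37 (adjusted p = 0.0122). Glu positive libraries had 32.5, 46.2 and 66.5 CPM and Glu negative libraries 102 and 205, with -1.66 ± 0.40 (adjusted p = 0.0175). The call in Glu cells was lost without Glu_negative_4665, at -1.04 (adjusted p = 0.368), and with the Glu libraries fitted alone (adjusted p = 0.109). Among its light chains, Slc7a7, which exchanges cationic for neutral amino acids, fell in NeuroD1 cells from 111, 82.3 and 165 CPM in negative to 26.4, 37.4 and 23.3 in positive libraries (-2.04 ± 0.51, adjusted p = 0.0105). Slc7a11, the cystine and glutamate exchanger, fell from 25, 20.1 and 9.60 to 2.94, 4.96 and 1.91 CPM (-2.50 ± 0.69, adjusted p = 0.0194). Without 1 library these NeuroD1 calls stood close to the threshold. That of Slc3a2 was lost without NeuroD1_positive_6360, NeuroD1_positive_6361 or NeuroD1_negative_6362 (adjusted p up to 0.0575), that of Slc7a7 without NeuroD1_positive_6362 or NeuroD1_negative_6362 (up to 0.0618), and that of Slc7a11 without NeuroD1_positive_6360, NeuroD1_positive_6362, NeuroD1_negative_6360 or NeuroD1_negative_6361 (up to 0.0947). The Glu libraries of Slc7a7 (7.28, 28.9 and 43 CPM in positive, 47.1 and 62.2 in negative) and of Slc7a11 (5.46, 9.30 and 3.70 against 45.8 and 13.6) did not overlap, and neither gene passed the test there. Slc7a8, the most abundant light chain per length, did not pass in either strain and its groups overlapped in NeuroD1 cells, with 156, 59.1 and 98.8 CPM in positive and 214, 114 and 336 in negative libraries. The light chain Slc7a10 had higher means in positive cells and was not called. It had 1.47, 22.9 and 15.3 CPM in NeuroD1 positive and 1.59, 2.01 and 2.18 in negative libraries, which overlap. Its Glu libraries had 26.1, 0.689 and 8.69 CPM in positive and 0.663 and 0.420 in negative cells. With DESeq2 and with no filter it was called in both strains. Of this group of 7, the heavy chain and its light chains, 3 were called lower in NeuroD1 cells and 1 in Glu cells, and none was called higher in the main fit. The 14 immune markers all fell in NeuroD1 positive cells and 7 of them in Glu positive cells, and their part in these values was not tested.

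Among facilitators and cationic amino acid carriers, Slc7a2 rose and Slc43a2, Slc43a3 and Slc7a15 fell in NeuroD1 positive cells. Slc7a2, a carrier of arginine and lysine, was 17.6, 46.2 and 28.2 CPM in positive and 5.99, 7.53 and 10.5 in negative libraries (1.95 ± 0.55, adjusted p = 0.0224). In Glu cells it was 31.9, 17.6 and 21.6 against 9.95 and 7.00 CPM, again without overlap, and did not pass. Slc43a2, a facilitator of large neutral amino acids, was 187, 195 and 189 CPM in positive and 449, 273 and 802 in negative libraries (-1.42 ± 0.39, adjusted p = 0.0181), so the positive libraries were close together and the negative ones far apart. Without NeuroD1_negative_6362 its change was -0.92 (adjusted p = 0.146), and the call was also lost without any 1 of the NeuroD1 positive libraries. Slc7a15, a further Slc7 member, was 2.2, 0.382 and 4.45 CPM against 10.2, 13.6 and 31.0 (-2.88 ± 0.89, adjusted p = 0.0370), with no such order in Glu cells, where 7.58, 14.8 and 1.85 CPM in positive overlapped 3.32 and 9.38 in negative libraries. Slc43a3, a family member known as a purine base carrier, had 2 counts in all over the NeuroD1 positive libraries and 53 over the negative ones, a ratio of 26.8 (exact 95% interval 7.06 to 227, counting error only). Its libraries were 0.367, 0.382 and 0 CPM against 5.11, 8.53 and 3.06 (adjusted p = 0.0318). The call of Slc7a2 was lost without NeuroD1_positive_6361, NeuroD1_negative_6360 or NeuroD1_negative_6361 (adjusted p up to 0.122) and with total scaling. Slc7a15 lost its call in 4 of the 6 fits, all but those without NeuroD1_positive_6362 or NeuroD1_negative_6360 (up to 0.171), Slc43a3 in 5, all but that without NeuroD1_negative_6362 (up to 0.135), and both with limma voom. Of the 8 members of this group, none was called in Glu cells. Slc7a1, another carrier of cationic amino acids, was 122, 188 and 254 CPM in NeuroD1 positive and 86.4, 123 and 82.5 in negative libraries, which overlap, and was not called.

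Slc38a11, a member of the sodium-coupled neutral amino acid family (chromosome 2, 65316430 to 65364034), rose in the positive cells of both strains and was the one of its group to be called. NeuroD1 positive libraries had 42.2, 32.8 and 29.7 CPM and negative ones 4.58, 3.51 and 2.62, with a log2 fold change of 3.25 ± 0.80 (adjusted p = 0.00938). This call was kept in each of the 6 fits without 1 library. In Glu cells the level was lower throughout: 5.46, 9.65 and 0.855 CPM in positive and 0 and 0.560 in negative libraries, the latter from 4 counts in all, with 3.89 ± 1.08 (adjusted p = 0.0366). The fitted change ranged from 3.10 to 7.25 without 1 library, the last without Glu_negative_4665, which leaves a negative library at 0 and gives no bound. That call was lost with total scaling, with limma voom, with the Glu libraries alone and without Glu_negative_5254, Glu_positive_5160 or Glu_negative_4665. The group of 13 Slc38, Slc36 and lysosomal members had 11 tested, and the other 10 were not called in either strain. Among them were Slc38a1, a glutamine carrier, at 187, 127 and 141 CPM in NeuroD1 positive and 120, 76.3 and 114 in negative libraries, and Slc38a2, a carrier that responds to amino acid supply, at 60.2, 60.3 and 72.5 CPM against 82.5, 80.8 and 74.7. The lysosomal arginine sensor Slc38a9 was between 3.01 and 46.7 CPM, with the highest value in Glu_positive_5254.

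Of the 14 carriers of neurotransmitters, osmolytes and related solutes, 8 were tested, and 2 fell in NeuroD1 positive cells. Slc6a8, the creatine carrier, was 46.3, 58.4 and 71.2 CPM in positive and 139, 143 and 272 in negative libraries (-1.65 ± 0.36, adjusted p = 0.00453), a call kept in each fit without 1 library. Slc6a4, the serotonin carrier, was 24.2, 13.0 and 14.6 CPM against 48.8, 32.6 and 96.5 (-1.78 ± 0.52, adjusted p = 0.0275). That call was lost without NeuroD1_positive_6361, NeuroD1_positive_6362 or NeuroD1_negative_6362 (adjusted p up to 0.180) and with limma voom. In Glu cells Slc6a4 did not have that order: 24.0, 69.2 and 94.7 CPM in positive libraries enclosed the 47.5 and 45.8 of the negative ones. Slc6a6, the taurine carrier, was 336, 377 and 427 CPM in NeuroD1 positive and 311, 220 and 325 in negative libraries, and 593, 251 and 349 against 195 and 187 in Glu cells. The positive libraries of Slc6a6 were above the negative ones in both strains without passing the test in either. Slc6a17, a vesicle carrier of neutral amino acids known from neurons, was 5.88, 4.20 and 7.42 CPM in NeuroD1 positive and 21.3, 9.54 and 10.04 in negative libraries, but at most 2.14 in any Glu library, and it was not called. Slc6a15, a neuronal carrier of branched-chain amino acids, had counts in all 6 NeuroD1 libraries, from 1.06 to 4.37 CPM, and is listed at 0 in the 5 Glu libraries, with too few counts for a test. The 2 tested genes that are no carriers, Slc6a19os and Slc7a6os, were not called, and Slc6a19os stayed at or below 5.34 CPM.

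The 2 strains share no library, so the calls of one can be set beside the values of the other. Of the 3 members that rose in NeuroD1 and the 3 that rose in Glu cells, Slc6a19 and Slc38a11 were the same, 66.7% of each list. Of those that fell, Slc3a2 and Slc6a20a were the same, 18.2% of the 11 in NeuroD1 and 100% of the 2 in Glu cells. These overlaps, and the signs that follow, were counted for members only and have no share over all genes beside them. They do not set the transporters apart from other genes. Of the 14 members called in NeuroD1 cells, 11 had the same sign in Glu cells, and Slc43a3, Slc6a4 and Slc7a15 had the opposite sign. For Slc43a3 that sign came with 1 library: Glu_positive_5254 had 106 CPM, while the other Glu positive libraries, at 7.58 and 2.71, lay below the 23.0 and 18.8 of the Glu negative ones. A direct test of the difference between the strains' changes called none of the 47 members, where edgeR called 0.0907% of all genes higher and 0.0209% lower, 0.112% in all. The smallest adjusted p of a member was 0.223, and 11 members had an unadjusted p under 0.05. The share of all genes under that unadjusted limit is not given here, and the shares above are at the adjusted one. DESeq2 called 1 member higher and 1 lower there, Slc7a4 and Slc43a3. Its share of all genes is not given here, and that of edgeR is no background for it. The difference was -1.15 ± 0.59 for Slc6a19 (adjusted p = 0.502) and -1.68 ± 0.59 for Slc15a1 (adjusted p = 0.296), so the change of Slc15a1, past the threshold in one strain alone, was not shown to differ between them.

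**Figure D4:**
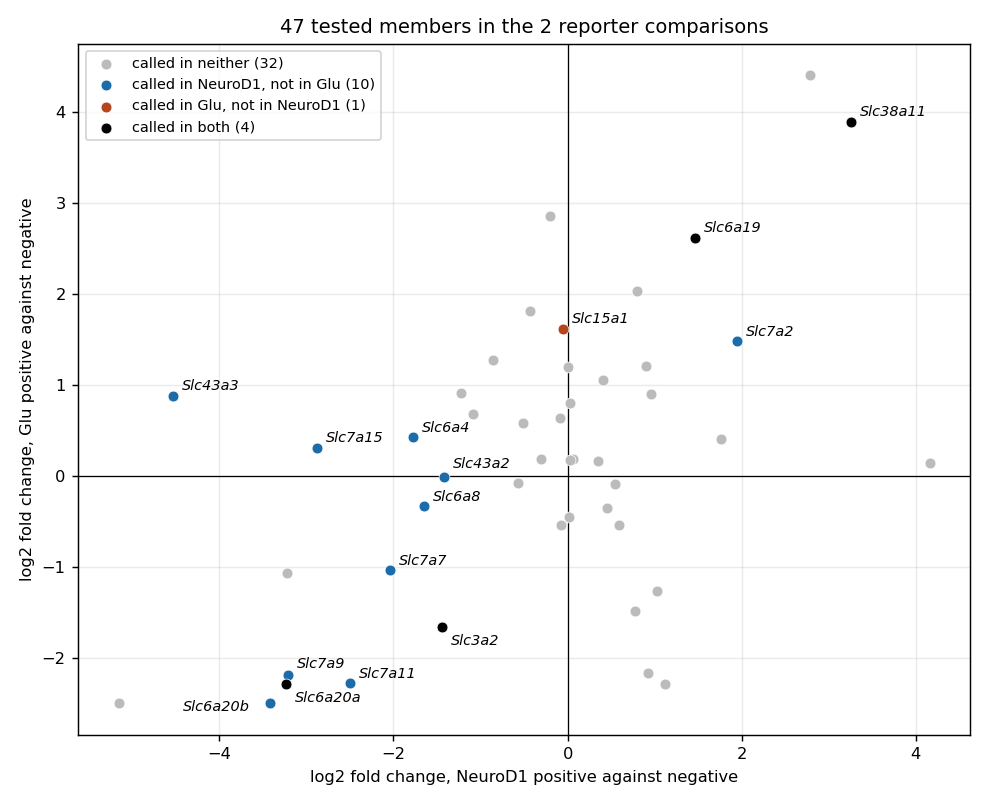
Log2 fold change of positive against negative cells in the Glu strain (vertical) against the NeuroD1 strain (horizontal) for the 47 tested members, with colours for the calls. The 4 members called in both strains, Slc6a19, Slc38a11, Slc3a2 and Slc6a20a, have the same sign in each, 10 were called in NeuroD1 cells alone, 1 in Glu cells alone and 32 in neither.

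Between the positive populations, 1 member was higher in NeuroD1 than in Glu positive cells and 3 lower, 8.51% of those tested, where 3.18% of all genes were called higher and 4.95% lower, 8.13% in all. The higher one was Slc38a11 (2.75 ± 0.77, adjusted p = 0.0332). The lower ones were Slc6a14, a carrier of neutral and cationic amino acids, at 1.84, 4.96 and 2.12 CPM against 19.1, 27.6 and 5.98 (-2.56 ± 0.73, adjusted p = 0.0360), Slc6a4 (-1.86 ± 0.52, adjusted p = 0.0328, with groups that overlap) and Slc43a3. Slc43a3 had 106, 7.58 and 2.71 CPM in Glu positive libraries, 389 counts against the 2 of NeuroD1 positive cells, a ratio of 148 (exact 95% interval 40.7 to 1227, counting error only; adjusted p = 0.00258). Most of that came from Glu_positive_5254, the library with the highest immune markers of the Glu positive ones, 2269 CPM. Glu_negative_5254, with 2259 CPM of these markers, had 23.0 CPM of Slc43a3, and Glu_negative_4665, with 4547, had 18.8. The part of these markers in the Slc43a3 values was not tested. Without Glu_positive_5254 the ratio was 20.8 (5.40 to 177), and without Glu_positive_4665 it was 300.3. The call was kept in each of the 6 fits without 1 library (adjusted p up to 0.0206) and lost with limma voom (0.102). The calls of Slc38a11, Slc6a4 and Slc6a14 were lost without any 1 NeuroD1 positive library, and also without Glu_positive_5254 (Slc38a11), without Glu_positive_5160 or Glu_positive_4665 (Slc6a4), and without Glu_positive_5254 or Glu_positive_5160 (Slc6a14), with an adjusted p of up to 0.134, and with the positive libraries fitted alone. Slc6a19 had nearly the same mean in both populations, 162 ± 15.9 and 161 ± 77.7 CPM, with a log2 fold change of 0.01 ± 0.39 (adjusted p = 0.993), and Slc15a1 had -0.55 ± 0.39 (adjusted p = 0.398). The median over the tested members was -0.02, beside -0.14 for all genes.

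Between the negative populations no member was called by edgeR, where 0.363% of all genes were called higher and 0.126% lower, 0.488% in all. An unadjusted p under 0.05 was found for 12 members, and the share of all genes under that limit is not given here. DESeq2 called 2 higher in NeuroD1 negative cells, Slc1a2 and Slc6a17, with its own share of all genes not given here. Slc6a19 was 58.6 ± 26.3 CPM in NeuroD1 negative and 26.2 ± 1.13 in Glu negative cells (1.16 ± 0.46, adjusted p = 0.429), and Slc15a1 93.2 ± 45.7 and 42.7 ± 14.4 (1.13 ± 0.45, adjusted p = 0.430). Neither pair of groups overlapped, which was not counted over all genes. The summed enterocyte markers were also higher in NeuroD1 negative (4350 to 13604 CPM) than in Glu negative libraries (3159 to 3973). The part of these markers in the 2 genes' values was not tested.

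Other genes of amino acid handling were examined as lists. Of 16 carriers outside the families above, 10 were tested. None was called in NeuroD1 cells, and 1 rose in Glu cells: Slc16a10, a facilitator of aromatic amino acids, at 312, 186 and 305 CPM in positive and 49.5 and 55.3 in negative libraries (2.35 ± 0.50, adjusted p = 0.00817). Its NeuroD1 libraries overlapped, with 160, 187 and 271 CPM in positive and 198, 67.3 and 271 in negative cells. Of 6 amino acid and peptide receptors 3 were tested, and Casr, the calcium-sensing receptor that also responds to aromatic amino acids, rose in both strains. It had 94.8, 81.6 and 67.6 CPM in NeuroD1 positive against 7.40, 6.53 and 10.04 in negative libraries (3.34 ± 0.74, adjusted p = 0.00452), and 3.94, 7.23 and 50.7 against 0.663 and 1.54 in Glu cells (4.16 ± 0.94, adjusted p = 0.0124, and 2.25 without Glu_positive_4665). The Glu calls of Slc16a10 and Casr were lost without either Glu negative library. That of Casr was also lost with limma voom and with the Glu libraries fitted alone. Gprc6a, Tas1r1 and Gpr142 had too few counts for a test.

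Lists of genes that respond to amino acids within the cell were read beside the shares called among all genes, 14.2% in the NeuroD1 and 6.64% in the Glu comparison. Of 19 amino acid response genes, 17 were tested, and 2 were called in NeuroD1 cells and 1 in Glu cells, all higher. Sesn2, a leucine sensor that restrains mTORC1, rose in NeuroD1 cells (2.48 ± 0.77, adjusted p = 0.0380) and lost its call in each of the 6 fits without 1 library. That call was also lost with upper quartile or total scaling and with limma voom. Vldlr, a lipoprotein receptor, rose in both strains (1.99 ± 0.64, adjusted p = 0.0446 in NeuroD1 and 3.59 ± 0.80, adjusted p = 0.0112 in Glu cells), with 1.26 in NeuroD1 cells without NeuroD1_positive_6362. Its NeuroD1 call was lost without that library or any 1 NeuroD1 negative library (adjusted p up to 0.286), with RLE or total scaling and with limma voom. The Glu call of Vldlr was lost without either Glu negative library. Asns, asparagine synthetase, and Atf4, the factor that drives this response, were not called in either strain. Of 19 mTORC1 sensing genes, 18 were tested, and 1, the GTPase Rragd, fell in NeuroD1 cells (-1.96 ± 0.64, adjusted p = 0.0481), and none was called in Glu cells. The call of Rragd was lost in 5 of the 6 fits, all but that without NeuroD1_positive_6360 (adjusted p up to 0.193), and with a stricter filter. Of 12 genes of glutamate, glutamine and GABA metabolism, 10 were tested, and 1 rose in NeuroD1 cells: Glul, glutamine synthetase, at 249, 307 and 227 CPM against 76.1, 83.3 and 76.8 (1.73 ± 0.34, adjusted p = 0.00175). In Glu cells Glul was 102, 98.9 and 198 CPM against 64.1 and 60.8, without overlap, and was not called. Median log2 fold changes of the tested genes in the NeuroD1 and Glu comparisons were -0.12 and -0.31 for the amino acid response, 0.09 and -0.10 for mTORC1 sensing, and 0.78 and 0.69 for glutamate metabolism. Between the positive populations, Slc25a44, a mitochondrial carrier of branched-chain amino acids (1.78 ± 0.50, adjusted p = 0.0336), the stress factor Atf5 (3.32 ± 0.80, adjusted p = 0.0146), the arginine sensor family member Castor2 (2.36 ± 0.57, adjusted p = 0.0156) and Gad2, which makes GABA (3.0 ± 0.86, adjusted p = 0.0368), were higher in NeuroD1 positive cells. Atf5 lost its call without NeuroD1_positive_6360 (adjusted p = 0.0804), Castor2 without NeuroD1_positive_6361 (0.0599), and Slc25a44 and Gad2 without any 1 NeuroD1 positive library, without Glu_positive_5254 and without 1 more Glu positive library, Glu_positive_5160 for Slc25a44 and Glu_positive_4665 for Gad2. Castor2, Slc25a44 and Gad2 also lost their calls with total scaling, and Slc25a44 and Gad2 with the positive libraries fitted alone. In these lists no gene was called between the negative populations or for the difference between strains.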

How the data were processed

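Sorted duodenal cells gave RNA of which 2 ng per library was amplified with the Ovation RNAseq system v2, per the labels' protocols. Cufflinks 2.2.1, TopHat2 2.1.0, CASAVA and the build GRCm38 stand in the submitters' processing notes; annotation and strand use are not given there. The authors deposited 1 table of estimated counts for 38283 Ensembl genes in 11 columns, with values that are not whole in 848 genes. These were rounded to whole numbers. Symbols came from GENCODE vM21 for 36425 genes, and 1 list gene, Slc66a1, was matched by its RefSeq synonym Pqlc2.

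Counts were tested with edgeR 4.0.16 in R 4.3.3: filterByExpr, TMM scaling and quasi-likelihood tests on 4 group means over all 11 libraries, with Benjamini-Hochberg adjustment over the 14332 genes kept and calls at an adjusted p under 0.05. Each SE was taken from the fold change and the F statistic. The fit was tested on simulated data. Alternatives used limma 3.58.1, DESeq2 1.42.0, other scalings and filters, the compared groups alone, a block for the library number and each library left out. CPM per kb used the union of a gene's exons. Library pairs of 1 group differed by more than sampling noise, with chi-square values divided by their degrees of freedom between 15.5 and 141, and all were kept apart. The largest, 132 and 141, were the pairs with NeuroD1_negative_6360, the NeuroD1 library without mitochondrial ribosomal counts. The other NeuroD1 negative pair gave 17.8. The part of those genes in these values was not tested. Total counts of 2279594 to 5722372 per library limit what low members can show, and amplified reads without molecular identifiers make intervals cover counting error only.

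Slc6a19, Slc15a1 and each called member were named with their values, members not called by level, and of each other list up to 4 called genes by size of change. The members and lists were chosen with earlier results of these data known, so their direction is no independent evidence. A gene of these lists is not reported here, and the lists' counts still include it. Where DESeq2 called 5 or fewer members beyond the edgeR calls of a comparison, they are named, after their values were seen.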

Additional observations from a re-analysis of the deposited data

How the results depend on the processing

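Values of members called in a comparison kept their sign under every alternative: over 23 pairs of a member and a comparison, 201 of 225 values under other settings stayed past the threshold and 24 did not, and of 133 values without 1 library 74 stayed and 59 did not. In NeuroD1 cells, 1 member was higher with library totals and 5 with no filter, and 7 were lower with limma voom. In Glu cells, with library totals 1 was higher and 4 lower, with no filter 5 were higher, with DESeq2 5 were higher and 5 lower, with upper quartile scaling 4 were lower, and with the Glu libraries alone 1 was higher and 0 lower. Between the positive populations, with library totals 0 were higher and 6 lower, with no filter 3 and with a stricter filter 2 were higher, with DESeq2 3 were higher and 5 lower, with voom 0 were lower, and with those libraries alone 0 were higher and 1 lower. Between the negative populations 2 were higher with no filter, 2 with DESeq2 and 1 with those libraries alone. For the difference between strains, 1 was lower with no filter, and DESeq2 gave 1 higher and 1 lower, with no adjusted p for 9 members. Beyond the edgeR calls, DESeq2 called Slc7a10 in NeuroD1 cells, and Slc1a2, Slc7a4, Slc7a9, Slc7a10 and Slc7a11 in Glu cells. Between the positive populations it added Slc1a1, Slc1a5, Slc3a1 and Slc6a17. The shares of all genes that DESeq2 called are not given here. The cause of these differences between settings was not tested.

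Leaving out each library in turn gave 1 to 5 members higher and 5 to 9 lower in NeuroD1 cells, 0 to 5 and 0 to 3 in Glu cells, 0 to 2 and 1 to 5 between the positive populations, and 0 to 0 between the negative populations and for the difference. Without NeuroD1_negative_6360, the NeuroD1 library without mitochondrial ribosomal counts, 10 members were called in NeuroD1 cells, all of them among the 14. Without NeuroD1_positive_6361 there were 6 and without NeuroD1_positive_6362 there were 7. Without Glu_negative_4665 no member was called in Glu cells and without Glu_negative_5254 there was 1, Slc3a2.

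For Slc15a1 in NeuroD1 cells, where it was not called, the sign turned with voom (0.00688) and without NeuroD1_positive_6360 (0.11), NeuroD1_positive_6362 (0.04) or NeuroD1_negative_6362 (0.41), in a range of -0.33 to 0.41 without 1 library. For Slc6a19 between the positive populations it turned with RLE (-0.0522), library totals (-0.29), no filter (-0.0151), DESeq2 (-0.0522) and without NeuroD1_positive_6361 (-0.02), NeuroD1_positive_6362 (-0.03), Glu_positive_5160 (-0.27) or Glu_positive_4665 (-0.05), in a range of -0.27 to 0.44. With the longest transcript as length, Slc6a19 had 38.6 CPM per kb in NeuroD1 positive and 6.26 in Glu negative cells, and Slc15a1 had 27.8 and 28.9 in positive and negative NeuroD1 cells and 40.6 and 13.2 in positive and negative Glu cells.

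Library totals moved the median over all genes, in log2, from 0.02 to -0.28 in NeuroD1 and from 0.12 to -0.19 in Glu cells, and from -0.14 to -0.51 between the positive and -0.01 to -0.39 between the negative populations. The share of higher among all calls moved with them from 46.3% to 31.5%, from 63.6% to 42.4% (49.0% with upper quartile), from 39.1% to 19.3% and from 74.3% to 54.8%, and from 81.2% to 56.0% for the difference. The replicate block gave 13 members called in NeuroD1 cells, without Slc6a20b, and 4 in Glu cells, without Slc15a1 and Slc38a11 and with Slc7a10, and 0 for the difference. Deviations of libraries that share a number correlated at 0.00984 to 0.0459, where with 2 Glu negative libraries the Glu values mirror each other. These values did not pair the libraries, and whether a shared number is a shared animal is not labelled.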
